A study of Mus musculus with 12 samples.

Results

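All 12 arrays of the study were used here to compare 8 endothelial cell samples exposed to tumour necrosis factor (TNF), in either of 2 forms, with 4 unexposed controls. The genes described are those whose 8 exposed arrays, or 7 of the 8, lay beyond the most extreme of the 4 controls. Of 10269 genes tested, 27 had all 8 exposed arrays above every control (0.263% of the genes tested) and 15 had all 8 below every control (0.146%). Counting 7 or 8 arrays gave 117 genes above (1.14%) and 63 below (0.613%). Counts of this order can arise by chance when arrays are divided at random, so their size is not read as a response to TNF. Every sample was of endothelial cells from wild-type newborn mice, grown in DMEM with FCS, glutamine and antibiotics. The 4 controls were mock-transfected. The 4 tmTNF samples carried, by stable transfection, a mutant of murine TNF that stays in the cell membrane because it cannot be cleaved, so their exposure was chronic. The other 4 samples received soluble TNF at 20 ng/ml for 4 h. The vector, the promoter driving the transgene and whether a transfected line came from 1 clone are not given in the sources used here, nor is it clear whether the soluble TNF cells had been mock-transfected. Each sample was hybridised to 1 Affymetrix array. The unit is a signal, the brightness of a gene's probe set with each array scaled to a trimmed mean of 500, and changes are on the scale of log2(signal + 16), which understates changes of dim genes. A signal of 100 is used as the limit below which a level is not relied on.

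TNF is an inflammatory cytokine that endothelial cells sense through the receptors Tnfrsf1a and Tnfrsf1b. Receptor complexes that include Traf2 and Birc3 release the transcription factor NF-kB from its inhibitors, and NF-kB then drives genes for leukocyte adhesion molecules, chemokines, survival factors and its own inhibitors. The membrane-bound form is a ligand for both receptors and can act on neighbouring cells. In vessels this programme is known as endothelial activation and lets leukocytes leave the blood.

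No single gene passed an adjusted p of 0.05 when both exposures were averaged with equal weight and set against control (0 of 10269 genes, 0%, by limma, with a smallest adjusted p of 0.0736). Before adjustment, 665 genes had a p under 0.05 (6.48%), of which 389 were higher (3.79%) and 276 lower (2.69%), where 513 would be expected by chance. A model that pooled the 8 exposed arrays as 1 group also called 0 genes. The 9 genes with an adjusted p under 0.10 were Nfkb2, Icam1, Tnip1, Slc12a2, Prrc2c, Edn1, Klk8, Eif2s3y and Ccl2, and 8 of them were higher in exposed cells. Of these 9, 6 had all 8 exposed arrays on one side of the controls. The labels do not say whether replicates were separate cultures or animals, so a p-value reflects the spread among these arrays alone, and that spread may be technical. The 42 genes without overlap were picked from the same values that the pooled test uses, so their p-values are given to describe them and support nothing further.

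Among the 27 genes above control, the pooled log2 fold change ran from 0.39 to 3.82 with a median of 1.16, and 15 genes had a value of 1 or more. Controls were all under 100 for 4 of the 27 (Icam1, Cxcl5, Il7 and Zbtb12), and with these at their bound the median was 0.93. Among the 15 genes below control it ran from -3.03 to -0.40 with a median of -0.70, and 3 genes were at -1 or beyond. The median over all genes tested was -0.011. The typical member was not dim: the median of the mean signals was 805 for the 27 genes and 724 for the 15, beside 846 for all genes tested. Lists of genes with known roles held 9 of the 27 genes, mostly NF-kB and leukocyte recruitment genes, and 1 of the 15, where 5.32% of the genes tested were in a list. The lists were themselves chosen with earlier results of these data known. Scaling mattered for membership. With every array scaled to the same median, 14 genes lay above and 17 below, and 19 of the 42 genes were still without overlap, 12 above and 7 below. Those 12 were Icam1, Ccl2, Cxcl5, Tnip1, Birc3, Smad6, Prrc2c, Il7, Tirap, Myo1e, Eef1aknmt and 4933412E12Rik, and the 7 were Klk8, Pqlc3, Itpk1, Dnase1l1, Rab38, Rbbp9 and Tmem179b. For the other 23 genes, 5 to 7 of the 8 exposed arrays stayed beyond all controls under that scaling.

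**Figure D1:**
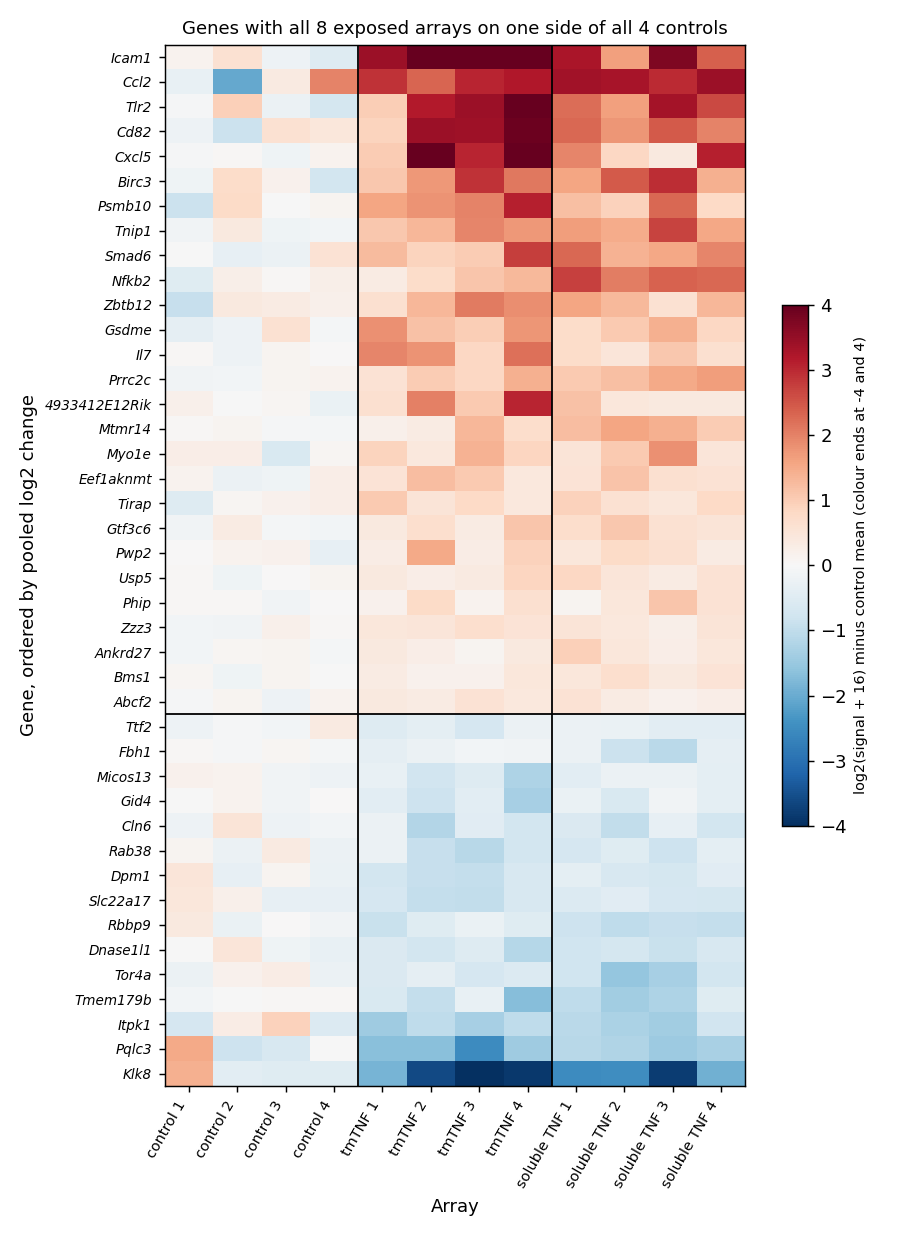
Heat map of the 42 genes (rows, ordered by pooled log2 change) on the 12 arrays (columns), coloured by log2(signal + 16) minus the mean of the 4 controls; the colour ends at -4 and 4. All 8 exposed columns are red for the 27 genes above the line and blue for the 15 below it, with the pooled change running from 3.82 for Icam1 to -3.03 for Klk8.

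The genes above control included Icam1, the endothelial receptor for leukocyte integrins. Its signals were 15.1, 27.0, 8.4 and 3.9 in controls 1 to 4, 288, 531, 2596 and 1069 in tmTNF replicates 1 to 4, and 259, 72.8, 362 and 133 in soluble TNF replicates 1 to 4. All controls were under 100 and only soluble TNF replicate 2 of the exposed arrays was, and the tmTNF arrays were mostly brighter than the soluble TNF arrays. This gave a pooled log2 fold change of 3.82 ± 0.55 (SE, adjusted p = 0.0736), a size that rests on control levels under the limit. Its bound was at least 3.44-fold, taken as the mean log2 value of the exposed arrays against that of a signal of 100. Against the same controls Icam1 rose with tmTNF (log2 4.87 ± 0.63, adjusted p = 0.00492), and with soluble TNF its value was 2.76 ± 0.63 (adjusted p = 0.195). The difference between the exposures was 2.11 ± 0.63 (adjusted p = 0.114).

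Ccl2, a chemokine that attracts monocytes, was among the brightest genes on the exposed arrays. Its signals were 1950, 560.1, 3021 and 9514 in controls, 17889, 12046, 19634 and 22031 in tmTNF and 24604, 23475, 19099.8 and 25818 in soluble TNF. Control 4 was far above the other controls and still below the lowest exposed array, so the groups did not overlap. Its log2 fold change over both exposures was 3.07 ± 0.53 (SE, adjusted p = 0.0988), and without control 4 it was 3.74 with an adjusted p of 0.00692. Cxcl5, a neutrophil-attracting chemokine, had signals of 3.0, 4.2, 1.5 and 5.6 in controls, 23.2, 379.7, 144 and 761 in tmTNF and 59.5, 18.3, 9.4 and 153 in soluble TNF. The brightest arrays were tmTNF replicates 2 and 4, and soluble TNF replicate 3 was only just above the controls. All controls and 4 of the exposed arrays were under 100, so neither a fold nor a bound is given (adjusted p = 0.529).

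In the chemokine list all 14 measured members had a higher mean in exposed cells, with a median log2 fold change of 2.06. At least 7 exposed arrays were above all controls for 5 of the 14 (Ccl2, Cxcl5, Ccl5, Cxcl1 and Cxcl10), where 1.14% of all genes tested had this. None of the 14 passed over all genes. The list names 30 chemokines. Of the 14 measured, 3 had a signal of 100 or more on all 4 controls, and the other 11 passed the signal filter only with the help of exposed arrays, which favours a higher exposed mean, so the count and the median describe the 14 and support nothing further. With 3 members whose controls were all under 100 at their bound, the median was 1.64. The chemokine median was 1.59 for tmTNF and 1.91 for soluble TNF, each against the same 4 controls. At an adjusted p under 0.05, 0 of the 14 differed between the exposures, which does not show that they were alike. The tmTNF minus soluble TNF difference was 2.16 ± 0.95 for Ccl5 and -0.40 ± 0.61 for Ccl2. Cxcl10, which attracts T cells, gave 68.0, 90.2, 167 and 459 in controls, 773, 8159, 1632 and 10866 in tmTNF and 3733, 335, 1172 and 3076 in soluble TNF, where replicate 2 lay within the control range. Its pooled value was 3.72 ± 0.82 (adjusted p = 0.236). Ccl5, another T cell attractant, gave 3.32 ± 0.82 and had the same array, soluble TNF replicate 2, within the control range.

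Among 17 measured leukocyte adhesion molecules, Icam1 had 8 exposed arrays above all controls and Vcam1 had 7. Over all genes tested, 1.14% had at least 7. The median of the list was -0.01, so these 2 genes stood apart from most of it. Vcam1, the ligand of the leukocyte integrin VLA-4, had signals of 188, 81.7, 2058 and 296 in controls, 311, 14203, 5889.9 and 15487 in tmTNF and 6128, 9054, 19608 and 8639 in soluble TNF. The low array was tmTNF replicate 1, within the control range, while the other 7 were above all controls. The pooled log2 fold change was 4.31 ± 1.01 (adjusted p = 0.283). For Sele, the endothelial selectin that slows rolling leukocytes, 4 exposed arrays lay above all controls and the pooled value was 1.81 ± 0.75 (adjusted p = 0.764).

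**Figure D2:**
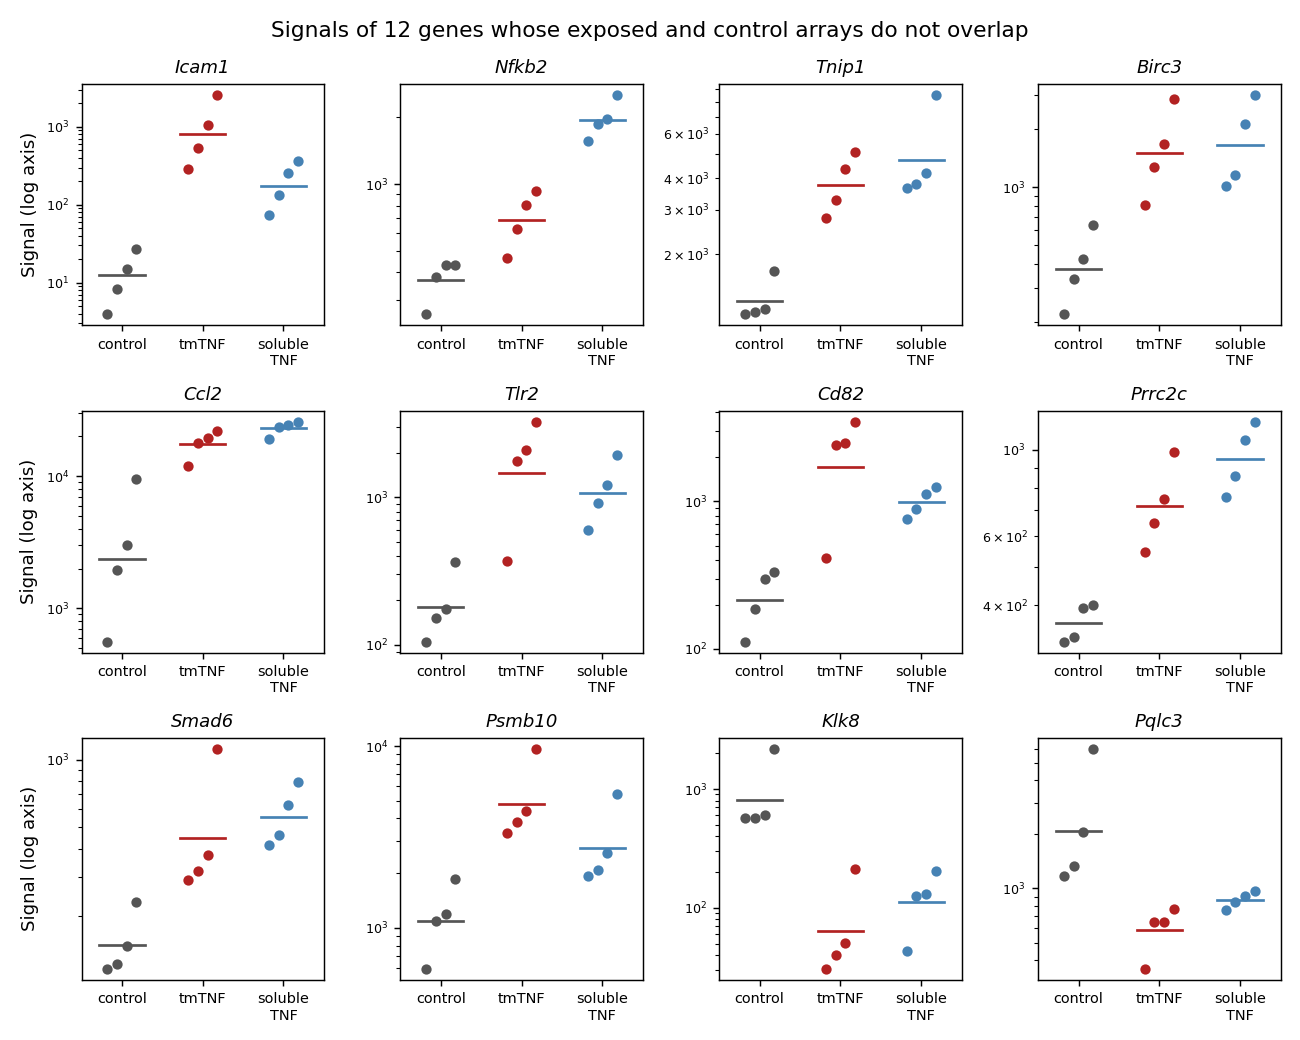
Signals on a log axis for 12 genes without overlap, 1 panel per gene with its own scale, 4 points each for control, tmTNF and soluble TNF; points are arrays in ascending order and lines are means taken on the log2(signal + 16) scale. In each panel every exposed point lies beyond all 4 control points. The gap is as little as 368.6 against 366.2 for Tlr2 in tmTNF replicate 1. On this axis it is as much as 72.8 against 27.0 for Icam1 in soluble TNF replicate 2, and nearly as wide for Klk8 in tmTNF replicate 1 (211 against 567).

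The NF-kB system was represented by a subunit, Nfkb2, and by inhibitors that act back on the pathway. Nfkb2, the precursor p100 of the p52 subunit, had signals of 259, 433, 379 and 432 in controls, 465, 630.2, 805 and 931 in tmTNF and 2527, 1564, 1956 and 1858 in soluble TNF. The soluble TNF arrays were all brighter than the tmTNF arrays, which in turn were all brighter than controls, tmTNF replicate 1 only narrowly. This gave a pooled log2 fold change of 1.61 ± 0.23 (SE, adjusted p = 0.0736). Nfkb2 was the 1 gene of the 27 for which the exposures differed after adjustment (tmTNF minus soluble TNF -1.49 ± 0.26, adjusted p = 0.0232), so its pooled value stands between 0.87 for tmTNF and 2.35 for soluble TNF. Another probe set of Nfkb2 had 7 of 8 exposed arrays above all controls. Under the same-median scaling Nfkb2 itself had 7 of 8.

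Tnip1, which binds the deubiquitinase Tnfaip3 and restrains NF-kB, had signals of 1184, 1719, 1154 and 1214 in controls, 2777, 3281, 5097 and 4349.8 in tmTNF and 4209, 3673, 8576 and 3796 in soluble TNF. The lowest exposed array was well above the highest control, control 2. Its log2 fold change over both exposures was 1.69 ± 0.25 (adjusted p = 0.0749), with 1.52 for tmTNF and 1.85 for soluble TNF. Nfkbie, an inhibitor that holds NF-kB in the cytoplasm, had signals of 260.4, 1097, 61.9 and 62.7 in controls, 753, 1218, 4813 and 1802 in tmTNF and 1914, 2975, 6541 and 1462 in soluble TNF. Its 1 low exposed array was tmTNF replicate 1, and the pooled value was 3.37 ± 0.72 (adjusted p = 0.236). Tnfaip3, which removes activating ubiquitin chains from the receptor complex, had signals of 449, 308, 256 and 174 in controls, 195, 848, 972 and 1281 in tmTNF and 1429, 2458, 3812 and 2136 in soluble TNF. Again tmTNF replicate 1 lay within the control range and the soluble TNF arrays were the brightest as a group, with a pooled value of 2.10 ± 0.45 (adjusted p = 0.236).

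Of 12 measured NF-kB feedback inhibitors, 10 had a higher mean in exposed cells. At least 7 exposed arrays were above all controls for 4 of them (Tnip1, Nfkbia, Nfkbie and Tnfaip3), where 1.14% of all genes tested had this. The median log2 fold change of the 12 was 0.52. Of the 12, 8 had a signal of 100 or more on all 4 controls. The rest, Nfkbie among them, passed the signal filter only with the help of exposed arrays, which favours a higher exposed mean. Nfkbia, the archetypal inhibitor of NF-kB, had a pooled value of 0.97 ± 0.29, with tmTNF replicate 1 within the control range. Of 5 measured NF-kB subunits and coactivators, 4 had a higher mean and 2 had at least 7 arrays above, Nfkb2 and Relb, with a list median of 0.48. Relb, the usual partner of the product of Nfkb2, had a pooled value of 1.55 ± 0.40 (adjusted p = 0.385) and its exception was tmTNF replicate 4.

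Promoter sequence was compared with these patterns because NF-kB binds a known DNA motif, kappaB. RefSeq promoter entries (assembly GRCm38.p6) held a window of 250 bases before a start for 23 of the 27 genes above and 14 of the 15 below. A loose kappaB pattern, GGGNNNNNCC on either strand, was in 18 of the 23 (78.3%), in 11 of the 14 (78.6%) and in 45.8% of all 32851 windows. Genes with several starts count once if any window matches, and by that count 67.5% of the tested genes with a window held it. The stricter kappaB consensus, a narrower form of the loose pattern that was added after the values had been seen, was in 6 of the 23 genes above (26.1%), 1 of the 14 below (7.14%), 5.42% of the tested genes and 3.9% of all windows. Among genes with 7 or 8 arrays beyond control it was in 15 of 95 above (15.8%) and 1 of 54 below (1.85%). The ISRE core GAAANNGAAA, bound by interferon-activated factors, was in 0 of the 23 and 1 of the 14, beside 3.1% of the tested genes. The STAT pattern TTCNNNGAA was in 3 and 2 (7.01% of the tested genes), and the AP-1 pattern TGANTCA in 1 and 0 (5.34%). A match is a string of letters in a window and not a demonstration of binding, and absence of a match says only that the letters are not there.

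The 6 genes above control with a consensus match are shown because their 8 exposed arrays did not overlap with control, each on the gene's own strand, 5′ to 3′, with the consensus match, or run of overlapping matches, in capitals. They lie in the bases before the RefSeq start of Tnip1 (chr11:54962967-54963018, minus strand), Nfkb2 (chr19:46304678-46304736, plus strand), Tlr2 (chr3:83841751-83841801, minus strand), Mtmr14 (chr6:113237679-113237728, plus strand), Pwp2 (chr10:78185176-78185225, minus strand) and Abcf2 (chr5:24577484-24577533, minus strand).
Tnip1: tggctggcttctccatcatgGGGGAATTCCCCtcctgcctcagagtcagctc
Nfkb2: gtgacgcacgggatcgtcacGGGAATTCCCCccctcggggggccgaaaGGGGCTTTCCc
Tlr2: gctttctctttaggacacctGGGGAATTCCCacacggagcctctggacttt
Mtmr14: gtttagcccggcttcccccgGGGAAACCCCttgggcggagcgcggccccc
Pwp2: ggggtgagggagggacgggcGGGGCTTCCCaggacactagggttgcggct
Abcf2: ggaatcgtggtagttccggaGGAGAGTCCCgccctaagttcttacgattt
The Tnip1 stretch held a palindromic run read as 3 overlapping matches. RefSeq gives 3 starts for Nfkb2. The stretch shown, before the first of them, held 3 matches in 2 runs, and the windows of the other 2 starts held 1 match each. Tlr2 held 2 overlapping matches, and Mtmr14, Pwp2 and Abcf2 held 1 each.

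Of the genes with 7 exposed arrays above control, the NF-kB inhibitors and the recruitment and interferon-linked genes named in the text that held the consensus are shown the same way, to set beside their values. They lie before the starts of Nfkbia (chr12:55492648-55492696, minus strand), Nfkbie (chr17:45555574-45555623, plus strand), Tnfaip3 (chr10:19015411-19015555, minus strand), Cxcl10 (chr5:92348963-92349068, minus strand), Irf1 (chr11:53769981-53770013, plus strand) and Ubd (chr17:37193857-37193891, plus strand).
Nfkbia: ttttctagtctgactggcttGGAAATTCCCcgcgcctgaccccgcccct
Nfkbie: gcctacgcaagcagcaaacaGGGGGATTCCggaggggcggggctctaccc
Tnfaip3: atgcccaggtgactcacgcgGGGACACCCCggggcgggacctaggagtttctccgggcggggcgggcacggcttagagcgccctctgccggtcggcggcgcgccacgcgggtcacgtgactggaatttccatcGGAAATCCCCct
Cxcl10: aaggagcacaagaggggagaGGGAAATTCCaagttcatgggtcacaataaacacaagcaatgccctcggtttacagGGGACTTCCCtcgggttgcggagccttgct
Irf1: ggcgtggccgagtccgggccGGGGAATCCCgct
Ubd: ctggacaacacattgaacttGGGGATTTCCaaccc
Cxcl10 and Tnfaip3 held 2 matches each and the others 1 each. The genes shown were picked by function, and other genes with 7 arrays above control held the consensus and are not shown. The 1 gene below control with a match was Ttf2 (chr3:100969877-100969913, minus strand), a transcription termination factor.
Ttf2: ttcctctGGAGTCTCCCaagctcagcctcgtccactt

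Of the TNF receptors, neither lay beyond control on all exposed arrays. Tnfrsf1a, the main receptor for soluble TNF, had a pooled log2 fold change of -0.66 ± 0.27 (adjusted p = 0.764) with 6 exposed arrays below all controls. Tnfrsf1b, the receptor that responds best to membrane TNF, had a value of 0.09 ± 0.41, with the exposures on opposite sides of control. The mean of Tnfrsf1b was below control in 4 of the alternative settings. Tnf itself did not reach the signal filter and was not tested. Of 27 measured members of this list, 2 had 7 exposed arrays above all controls (Traf1 and Traf2) and 1 had 7 below (Rbck1). Over all genes tested, 1.14% had at least 7 above and 0.613% at least 7 below. The list median was -0.03. Traf1, an adaptor of the receptor complex, had signals of 10.9, 4.4, 2.2 and 41.7 in controls, 7.0, 802, 88.7 and 1004 in tmTNF and 194, 159, 415 and 145 in soluble TNF. All its controls were under 100, tmTNF replicate 1 was within their range, and the pooled value was 2.99 ± 0.87 (adjusted p = 0.52, at least 1.88-fold). For Traf2 the exception, tmTNF replicate 1, lay below all controls, and the pooled value was 0.37 ± 0.26. Rbck1, a subunit of the linear ubiquitin ligase, had -0.37 ± 0.17.

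Birc3, an inhibitor of apoptosis that is recruited to the TNF receptor, was the 1 survival gene of 18 measured with at least 7 exposed arrays above all controls. Its signals were 333, 633, 422 and 218 in controls, 811, 1279.9, 2872 and 1688 in tmTNF and 1159.6, 2142, 3029.8 and 1020.1 in soluble TNF. Both exposures covered much the same range, above the highest control, control 2. The pooled log2 fold change was 2.03 ± 0.39 (adjusted p = 0.182), with 1.96 for tmTNF and 2.11 for soluble TNF. The survival and death list as a whole had a median of -0.03. Over all genes tested, 1.14% had at least 7 exposed arrays above all controls.

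Tlr2, a receptor for bacterial lipoproteins, and Tirap, an adaptor that links it to NF-kB, both had all 8 exposed arrays above control. Tlr2 had signals of 175, 366, 152 and 105 in controls, 369, 1766, 2079 and 3251 in tmTNF and 912, 600.3, 1946 and 1204 in soluble TNF. The array tmTNF replicate 1 equalled control 2 to within 3 signal units, while the other 7 were clearly higher. The pooled log2 fold change of Tlr2 was 2.68 ± 0.52 (adjusted p = 0.182). Tirap had signals of 384, 593, 636 and 676 in controls, 1169, 801, 974 and 749.6 in tmTNF and 1066, 869, 772 and 974 in soluble TNF. Its difference was small and alike in both exposures, at 0.69 for tmTNF and 0.69 for soluble TNF, with a pooled value of 0.69 ± 0.20 (adjusted p = 0.507).

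For interferon-stimulated genes the pooled value averaged unlike values in the exposures. All 46 measured interferon-stimulated genes had a higher pooled mean. An unadjusted p under 0.05 was found for 24, all higher, where 3.79% of all genes tested were higher at that level. Of the 46, 38 had a signal of 100 or more on all 4 controls. The rest passed the signal filter only with the help of exposed arrays, which favours a higher exposed mean. The list median was 0.94. That median lay between 2.06 for tmTNF and -0.14 for soluble TNF against the same controls, and 21 of the 46 differed between the exposures at an adjusted p under 0.05, where 125 of all genes tested (1.22%) did. None of the 46 had all 8 exposed arrays above control, and 3 had 7 (Gbp2, Gbp3 and Parp14). Over all genes tested, 0.263% had all 8 above and 1.14% at least 7. Gbp2, an interferon-inducible GTPase, had signals of 92.8, 602, 508 and 397 in controls, 1976, 3333, 3972 and 6785 in tmTNF and 1149, 366, 3996 and 1330.3 in soluble TNF. The exception for Gbp2, Gbp3 and Parp14 was soluble TNF replicate 2 in each case. The pooled value of Gbp2 was 2.62 ± 0.60 (adjusted p = 0.283), that of Gbp3 1.93 ± 0.55 and that of Parp14, an ADP-ribosyltransferase, 1.67 ± 0.36.

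Psmb10, a catalytic subunit of the immunoproteasome, was the 1 of 18 measured MHC class I presentation genes with all 8 exposed arrays above control. Its signals were 597, 1869, 1087 and 1193 in controls, 3341, 3839, 4375 and 9642 in tmTNF and 2569.8, 2075, 5461 and 1928 in soluble TNF. Control 2 nearly reached the lowest exposed array, soluble TNF replicate 4. This gave a pooled log2 fold change of 1.71 ± 0.38 (adjusted p = 0.236). The list median was 0.50, from 1.35 for tmTNF and -0.06 for soluble TNF. Over all genes tested, 0.263% had all 8 exposed arrays above control. Irf1, a transcription factor that acts downstream of both TNF and interferon, had 7 exposed arrays above control and a pooled value of 1.41 ± 0.33 (adjusted p = 0.283), alike in tmTNF (1.46) and soluble TNF (1.36). Ubd, a ubiquitin-like protein of the FAT10 type, was at least 1.81-fold higher, with all controls under 100 (log2 2.48 ± 0.77, adjusted p = 0.589). The array tmTNF replicate 1 was the exception for both Irf1 and Ubd.

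In the list of TGF-beta and BMP signalling 23 of 31 measured members had a higher mean in exposed cells, with a median of 0.36. Of the 31, 20 had a signal of 100 or more on all 4 controls. The rest passed the signal filter only with the help of exposed arrays, which favours a higher exposed mean. The count and the median therefore describe these members and support nothing further. Smad6, an inhibitor of BMP signalling, had signals of 147, 117, 123 and 231 in controls, 377, 291, 317 and 1116 in tmTNF and 793, 416, 462 and 627 in soluble TNF. All 8 exposed arrays were above the highest control, control 4, and tmTNF replicate 4 was the brightest. Its pooled log2 fold change was 1.64 ± 0.35 (adjusted p = 0.236). Tgfb2, a TGF-beta ligand, and Smad3, a signal transducer of TGF-beta, had 7 exposed arrays above control, with pooled values of 1.72 ± 0.42 and 0.91 ± 0.26. All controls of Tgfb2 were under 100, and its bound was at least 2.16-fold. Pmepa1, which dampens TGF-beta signalling and was in no list, also had 7 and a value of 2.56 ± 0.59.

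Among genes above control that were in no list, Prrc2c and Cd82 had the widest gaps between exposed and control arrays. Cd82, a membrane tetraspanin, had signals of 186, 112, 334 and 296 in controls, 410, 2466, 2401 and 3457 in tmTNF and 1117, 760, 1246 and 887 in soluble TNF. The tmTNF group was spread widely, with replicate 1 close to the controls and the other 3 brighter than any soluble TNF array. Its pooled log2 fold change was 2.51 ± 0.49 (adjusted p = 0.182). A dimmer probe set of Cd82 gave 0.16, with 2 exposed arrays above and 1 below all controls. Prrc2c, a large RNA-binding protein, had signals of 322, 332, 392 and 401 in controls, 548, 748, 649 and 989 in tmTNF and 758, 857, 1059 and 1179.7 in soluble TNF. Its replicates lay close together within each group, and the pooled value was 1.16 ± 0.19 (adjusted p = 0.0988). Another probe set of Prrc2c had 7 of 8 exposed arrays above all controls with a smaller log2 fold change of 0.38.

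Il7, a growth factor for lymphocytes, was the 1 cytokine of 12 measured with at least 7 exposed arrays above control. Its signals were 77.7, 63.7, 82.5 and 76.5 in controls, 332, 301, 144 and 401 in tmTNF and 137, 110, 175 and 126 in soluble TNF. Controls were all dim and alike, and the exposed arrays ranged from just above them to several times brighter. The pooled value was 1.21 ± 0.27 (adjusted p = 0.261, at least 1.81-fold). Over all genes tested, 1.14% had at least 7 exposed arrays above control. Gsdme, a gasdermin that forms pores in dying cells, had 1.22 ± 0.24, but a dimmer probe set of Gsdme gave a log2 fold change of -0.74 with 2 exposed arrays above and 4 below all controls. All controls of Zbtb12 were under 100, and its bound was at least 1.01-fold, so almost no difference is assured. Myo1e, an unconventional myosin, had 0.93 ± 0.29, and Mtmr14, a phosphoinositide phosphatase, 0.97 ± 0.22.

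Bms1 and Pwp2, which act in ribosome biogenesis, had pooled values of 0.40 ± 0.12 and 0.65 ± 0.24. Abcf2, a member of an ATP-binding family linked to translation, had 0.39 ± 0.15, and Gtf3c6, a subunit of the RNA polymerase III factor TFIIIC, 0.68 ± 0.19. Eef1aknmt, which methylates an elongation factor, had 0.77 ± 0.24. The others were Usp5, a deubiquitinase (0.51 ± 0.16), Zzz3 (0.48 ± 0.14), Phip (0.49 ± 0.21), Ankrd27 (0.41 ± 0.17) and the clone-named 4933412E12Rik (1.14 ± 0.38). Under the same-median scaling Bms1, Pwp2, Abcf2, Gtf3c6, Usp5, Zzz3, Phip and Ankrd27 each had an exposed array within the control range or beyond it. Cytosolic ribosomal protein genes, by comparison, had a median of 0.02 over 29 members.

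The 15 genes below control were led by Klk8, a secreted serine protease of the kallikrein family. Its signals were 2171, 603, 568 and 567 in controls, 211, 51.1, 30.8 and 40.6 in tmTNF and 127, 130.4, 43.1 and 203 in soluble TNF. Control 1 was far above the other controls, which lay close together, and every exposed array was dimmer than any control. Its log2 fold change over both exposures was -3.03 ± 0.52 (adjusted p = 0.0988), with -3.37 for tmTNF and -2.68 for soluble TNF. The tmTNF replicates 2 to 4 and soluble TNF replicate 3 were under 100, so these sizes rest in part on levels under the limit. Klk8 had the widest gap of all 42 genes, 1.36 on the log2 scale between the nearest control and the nearest exposed array. It was the 1 of 25 measured metalloproteinases, inhibitors and serine proteases with 7 or more arrays below control. Over all genes tested, 0.613% had this.

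Pqlc3 and Itpk1 were the other 2 genes below control by a log2 value of 1 or more. Pqlc3, a transmembrane protein with PQ-loop repeats, had signals of 5969, 1171, 1332 and 2070.3 in controls, 651, 654, 357 and 769 in tmTNF and 968, 909, 755 and 845 in soluble TNF. Controls 1 and 4 were brightest, and every exposed array was dimmer than any control. Its pooled value was -1.54 ± 0.38 (adjusted p = 0.312). Itpk1, an inositol phosphate kinase, had signals of 612, 1204, 1860.5 and 664 in controls, 353, 476, 380.5 and 476 in tmTNF and 458, 400.4, 361 and 566 in soluble TNF. Controls 1 and 4 were the dimmest of the controls and lay just above the brightest exposed array. Its pooled value was -1.16 ± 0.28 (adjusted p = 0.31).

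The rest of the genes below control had smaller differences. Dnase1l1, a DNase-like protein, had -0.76 ± 0.19 and Tmem179b -0.96 ± 0.25. The other 2 probe sets of Tmem179b gave 0.14 and -0.35, with 0 exposed arrays below all controls in each. Tor4a, a torsin-like ATPase, had -0.82 ± 0.20, and Rbbp9, a serine hydrolase, -0.73 ± 0.21. Dpm1, which makes the mannose donor for glycosylation in the endoplasmic reticulum, had -0.68 ± 0.17, and Cln6, a membrane protein of the endoplasmic reticulum, -0.65 ± 0.22. Micos13, a subunit of the complex that shapes mitochondrial cristae, had -0.52 ± 0.17, and Gid4, a substrate receptor of a ubiquitin ligase, -0.56 ± 0.20. Slc22a17, a receptor for lipocalin 2, Rab38, a small GTPase, Fbh1, a DNA helicase, and Ttf2 had -0.70 ± 0.24, -0.67 ± 0.27, -0.42 ± 0.18 and -0.40 ± 0.16. None of the 15 differed between the exposures after adjustment, and 1 did at an unadjusted p under 0.05.

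**Figure D3:**
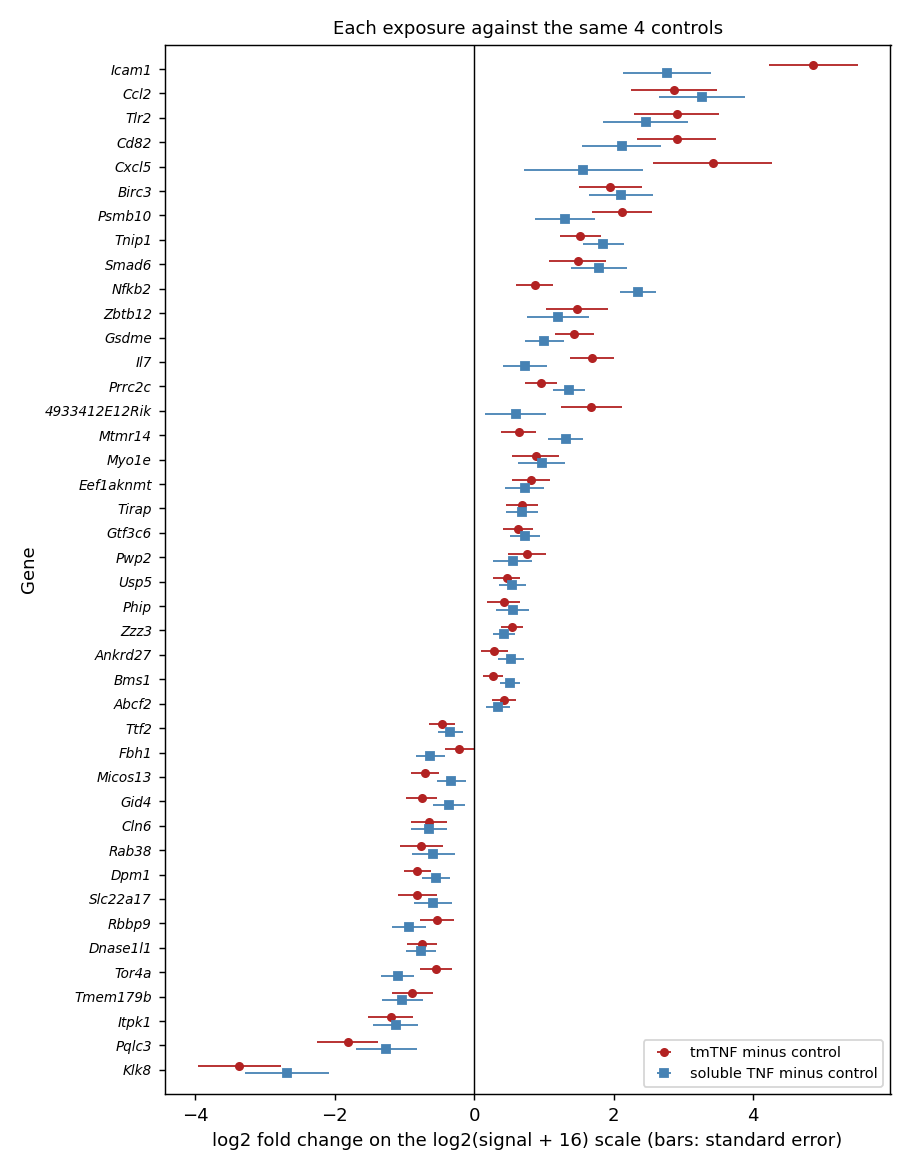
Log2 fold changes on the log2(signal + 16) scale of the 42 genes for tmTNF minus control (circles) and soluble TNF minus control (squares), with standard errors as bars; both use the same 4 controls. Icam1 has 4.87 with tmTNF and 2.76 with soluble TNF, Nfkb2 has 0.87 and 2.35, and Tirap has 0.69 with each.

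Within the 27 genes above control, the tmTNF change was the larger in 13 and the soluble TNF change in 14. The difference between exposures had an unadjusted p under 0.05 for 6 of the 27 and an adjusted p under 0.05 for Nfkb2 alone. Within the 15 below, the tmTNF change was larger in size in 9 and the soluble TNF change in 6. Taken against control on its own, tmTNF called 20 genes (0.195%) and soluble TNF 4 (0.039%), and these comparisons share their controls. Of the 42 genes, Icam1 was called with tmTNF and Nfkb2 with soluble TNF. With tmTNF alone, 225 of the 10269 genes tested had all 4 arrays above and 101 all 4 below every control. With soluble TNF alone the counts were 377 and 456. A lack of overlap arises by chance more easily with 4 exposed arrays than when both exposures are required. The number expected by chance was not worked out, so the size of these counts is not read as a response to TNF.

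Other probe sets for the same genes were read as a separate measurement on the same RNA. For 12 of the 27 genes above control there were 15 further probe sets past the signal filter, of which 14 had the same sign, 3 had 7 exposed arrays above all controls and 0 had 8. For 3 of the 15 genes below there were 8, of which 7 had the same sign, 2 had 7 arrays below and 0 had 8. Averaging all kept probe sets of a gene gave 51 genes without overlap, of which 32 were among the 42. Averaging could not alter the 27 of the 42 genes that had 1 kept probe set. Of the 15 that had more, 5 still had no overlap (Cd82, Gid4, Prrc2c, Tirap and Ttf2), and Nfkb2 had 7 arrays above. The averaged log2 fold change moved by over 1.5 times for Abcf2 (0.25), Ankrd27 (0.73), Cd82 (1.34), Gsdme (0.24), Prrc2c (0.77) and Tmem179b (-0.39).

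Genes with exactly 7 exposed arrays beyond control numbered 90 above and 48 below. The 1 array not beyond the controls was tmTNF replicate 1 in 50 of these 138 genes and tmTNF replicate 3 in 31. It was tmTNF replicate 4 in 4 genes, and each soluble TNF replicate in 7 to 12. Acod1, which makes the antimicrobial metabolite itaconate, had signals of 2.9, 28.1, 44.8 and 2.8 in controls, 17.8, 759.5, 1137 and 1849.7 in tmTNF and 499.8, 121, 1215 and 437 in soluble TNF. The controls were all under 100, tmTNF replicate 1 was within their range, and the pooled log2 fold change was 3.90 ± 0.95 (adjusted p = 0.31, at least 4.02-fold). Prss23, a serine protease, had 2.72 ± 0.54 and Junb, a subunit of AP-1, had 1.27 ± 0.34, both with the same exception. In this group the exception was tmTNF replicate 1 for Vcam1, Nfkbia, Nfkbie, Tnfaip3, Traf1, Irf1, Junb, Smad3, Acod1, Prss23 and Ubd, and soluble TNF replicate 2 for Ccl5, Cxcl10, Gbp2, Gbp3 and Parp14.

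**Figure D4:**
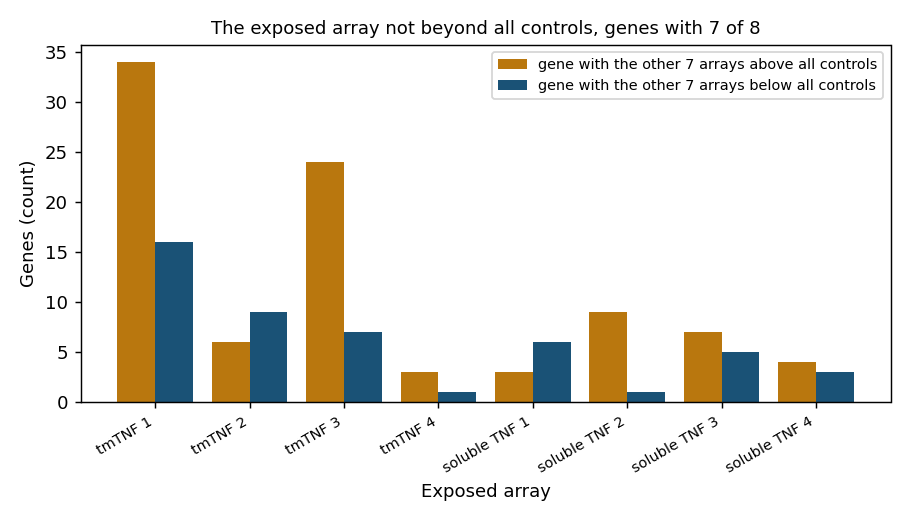
Number of genes (bars, from 0) for which each exposed array was the 1 array not beyond all 4 controls while the other 7 were, for genes above (orange) and below (blue). The array tmTNF replicate 1 has 34 genes above and 16 below, and tmTNF replicate 4 has 3 and 1.

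Of the 48 genes with 7 arrays below control, 11 are named here by the rule, Rbck1 among them. Tns2, a tensin of focal adhesions, had a pooled value of -0.92 ± 0.20 (adjusted p = 0.236), with signals of 1737, 1509.5, 1511 and 1017 in controls, 1239, 853, 1017 and 811 in tmTNF and 606, 431, 585 and 684 in soluble TNF. Its soluble TNF arrays were the dimmest, tmTNF replicate 1 overlapped with the controls, and tmTNF replicate 3 lay barely below control 4. Net1, an exchange factor for the GTPase RhoA, had -1.02 ± 0.22 (adjusted p = 0.236), and Ssh3, of the slingshot phosphatases, -1.67 ± 0.49. Txnip, which restrains glucose uptake and thioredoxin, had -0.94 ± 0.33, Hecw2, a ubiquitin ligase, -1.55 ± 0.55, Rnf157, another ubiquitin ligase, -0.90 ± 0.35, and Reep2 -0.94 ± 0.24. The rest of the 11 were Ptpdc1 at -0.92 ± 0.35, Tmem250-ps at -0.93 ± 0.28 and Zfp354a at -0.87 ± 0.53. For Rnf157 and Zfp354a the eighth exposed array lay above all controls.

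The count of 42 has a soft edge. The narrowest genes inside were Rab38, whose tmTNF replicate 1 read 110.8 against 111.0 in the nearest control, Gid4 (815.7 against 819.4), Tlr2 (368.6 against 366.2) and Rbbp9 (192.4 against 193.7). The nearest genes outside were Uggt1, whose soluble TNF replicate 1 read 1036 against 1039 in the highest control, and Rpusd1 (324.3 against 326.1) among those above. Among those below it was 3830406C13Rik (1036 against 1029). Among the 117 genes above, the highest control was control 4 in 40 and control 1 in 18, and among the 63 below the lowest control was control 4 in 25 and control 3 in 8.

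Of the 9 genes with the lowest pooled p-values, Edn1, Slc12a2 and Eif2s3y had fewer than 7 exposed arrays beyond control. Edn1, which encodes the vasoconstrictor endothelin 1, had signals of 9.7, 6.3, 49.1 and 3.9 in controls, 48.4, 234, 19.1 and 279 in tmTNF and 1170, 2618, 4204 and 618 in soluble TNF. All soluble TNF arrays were far above control, and tmTNF replicates 1 and 3 were within the control range. Its pooled value was 3.90 ± 0.66 (adjusted p = 0.0988, at least 3.79-fold as a mean over both exposures). That bound rests on soluble TNF, and no rise is assured for tmTNF, whose replicates 1 and 3 were under 100. The exposures differed by -3.90 ± 0.76 (tmTNF minus soluble TNF, adjusted p = 0.0349). Slc12a2, which brings sodium, potassium and chloride into the cell, had a pooled value of 1.42 ± 0.24 (adjusted p = 0.0988) with 6 exposed arrays above control, at 0.92 for tmTNF and 1.91 for soluble TNF. The Y-linked gene Eif2s3y had signals of 9.4, 9.2, 37.9 and 0.7 in controls, 497, 1683, 696 and 838 in tmTNF and 15, 4.5, 2.4 and 15.3 in soluble TNF. It was high on the tmTNF arrays alone, so its pooled value of 2.40 ± 0.41 (adjusted p = 0.0988) describes neither exposure. Il13ra1, a subunit of the interleukin 13 receptor, had signals of 1226.5, 524, 1672 and 606 in controls and 73.5, 8.4, 1.9 and 41.5 in tmTNF. It fell with tmTNF (-4.56 ± 0.55, adjusted p = 0.00461), a size that rests on tmTNF levels under the limit. With soluble TNF it had -0.06 ± 0.55, and the pooled value was -2.31 ± 0.48. Lrg1, a secreted glycoprotein of vessels, had a pooled value of -2.95 ± 0.86 (adjusted p = 0.512) with 6 exposed arrays below control. All its exposed arrays but tmTNF replicate 3 and soluble TNF replicate 3 were under 100, so this size is not relied on. Nos3, the endothelial nitric oxide synthase, had -0.27 ± 0.67, with no exposed array beyond the controls in either direction.

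Over the gene lists, pooled medians were largest for chemokines (2.06), the 3 measured members of the Y-linked and Xist list (1.80, or 0.00 at their bounds, since all their controls were under 100), interferon-stimulated genes (0.94) and cytokines (0.70). Of 12 measured cytokines, 6 had a signal of 100 or more on all 4 controls. The rest passed the signal filter only with the help of exposed arrays, which favours a higher exposed mean. Chemokines and cytokines had like medians in both exposures, and the Y-linked and interferon lists did not (3.96 and -0.16, and 2.06 and -0.14, for tmTNF and soluble TNF). Cell cycle genes had 40 of 53 members higher and a median of 0.22, from -0.23 with tmTNF and 0.61 with soluble TNF, and none had 7 or more exposed arrays above control. The lowest pooled medians were those of oxidant defence and inflammatory enzymes (-0.27 over 19), coagulation and complement (-0.27 over 16) and acute phase genes (-0.27 over 9, from 0.57 with tmTNF and -1.12 with soluble TNF). Oxidative phosphorylation had 0.02 over 42. No member of any list passed over all genes. With quantile, same-median or deposited scaling the sign of the median turned for 5 lists whose medians were near 0 (leukocyte adhesion molecules, immediate early genes, matrix proteins, oxidative phosphorylation and cytosolic ribosomal proteins) and for none of the others. Without rescaling the chemokine median was 1.64, and those of vasomotor genes and angiogenic factors were 0.005 and 0.013 in place of 0.32 and 0.51.

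**Figure D5:**
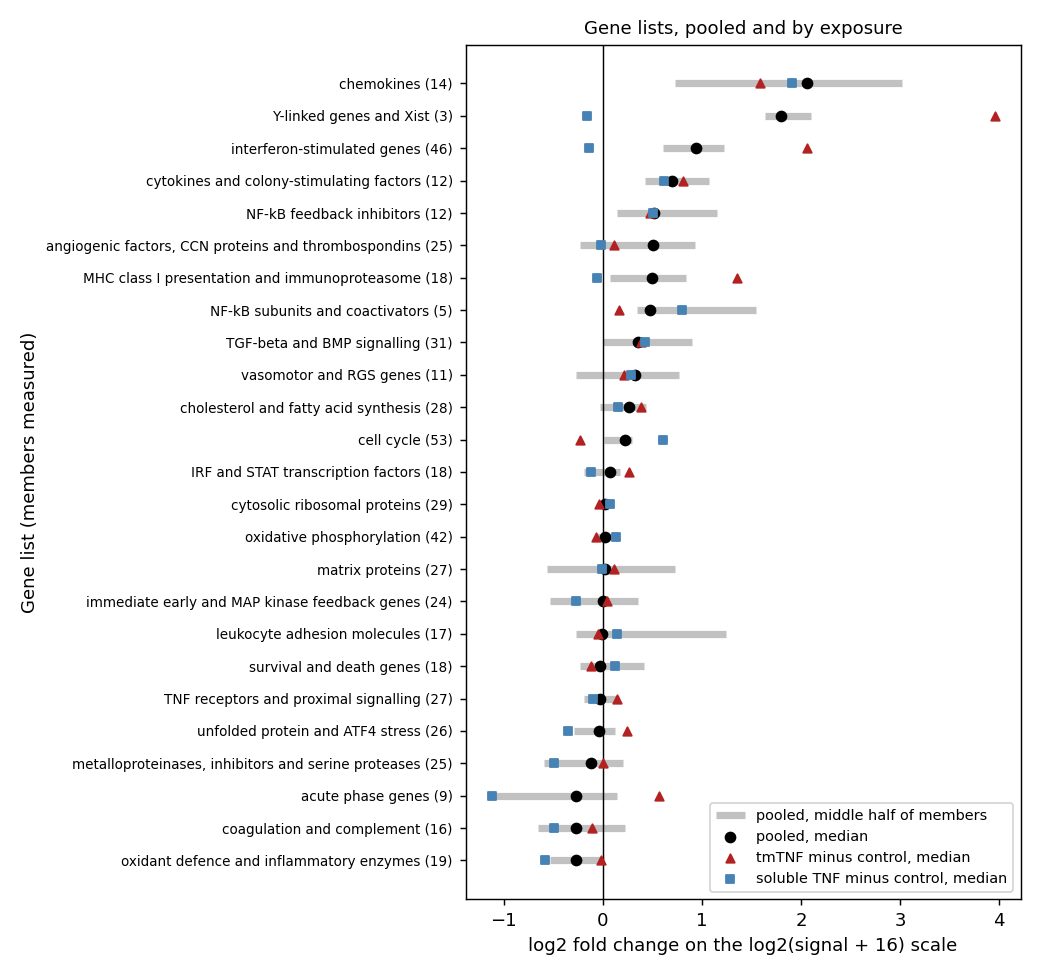
Median log2 fold change of each gene list for the pooled comparison (black circles, with a grey bar over the middle of the members from the lower to the upper quartile), tmTNF minus control (triangles) and soluble TNF minus control (squares); numbers in brackets are members measured. The chemokine medians are 2.06, 1.59 and 1.91, and those of interferon-stimulated genes are 0.94, 2.06 and -0.14.

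The arrays differed in ways that ran alongside exposure or cut across it. The control probe set for the 5′ end of 18S ribosomal RNA read 121 to 146 on controls and 183 to 509 on exposed arrays, so it too lay above all controls on all 8. The middle and 3′ probe sets of 18S overlapped. They read 181 to 384 and 262 to 466 on controls, and 322 to 978 and 402 to 719 on exposed arrays. The ratio of 3′ to 5′ Actb signal was 1.18 to 1.29 in controls, 1.12 to 1.29 in tmTNF and 1.10 to 1.16 in soluble TNF. All 20 endothelial markers were measured, but their mean log2 level ranged from 8.90 to 12.42 in controls, 9.69 to 12.53 in tmTNF and 10.49 to 11.99 in soluble TNF, lowest in control 3, tmTNF replicate 2 and tmTNF replicate 4. Their summed signal was 23680 to 189074, 37284 to 203968 and 63564 to 134717 in the same order of groups. The summed signal of 4 measured of 10 fibroblast markers was 197 to 9953 in controls, 237 to 1077 in tmTNF and 107 to 8087 in soluble TNF, with Lum, Thy1, Postn, Dpt and Tcf21 under 100 on all arrays. For leukocytes 8 of 12 markers, including Ptprc, were under 100 on all arrays, and the 3 measured summed to 843 to 27435, 361 to 9636 and 336 to 1009. The 2 measured mesothelial markers summed to 270 to 10532, 106 to 13955 and 372 to 4379. In bulk samples fewer cells of a type and less RNA per cell cannot be told apart, and the part of these values in the results was not tested. Y-linked genes were high on the tmTNF arrays alone, so a difference in sex or source of the tmTNF cells cannot be told apart from exposure to tmTNF, here or in any tmTNF value. Without the 3 arrays lowest in endothelial markers, an omission chosen after seeing the data, 0 genes were called and 218 had no overlap. Leaving out arrays makes overlap rarer and cannot remove any of the 42. Soluble TNF replicates 1 and 4 (r = 0.98) and 2 and 3 (r = 0.96) resembled each other more than other pairs of arrays did. The next highest value crossed the groups, between control 4 and soluble TNF replicate 4 (r = 0.95), while control 4 reached at most 0.88 with another control. With each soluble TNF pair averaged to 1 sample 0 genes were called.

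Single arrays moved the counts. Without tmTNF replicate 1, 12 genes were called (Acod1, Cd82, Icam1, Klk8, Nfkb2, Prrc2c, Rtl8c, Tlr2, Tmlhe, Tnfaip3, Tnip1 and Vcam1), and without control 4 there were 2 (Ccl2 and Slc12a2), while the other 10 omissions called 0. Without tmTNF replicate 1 the adjusted p of Icam1 and Nfkb2 was 0.0101 and that of Tnip1 0.0215. Across all settings the log2 fold change of Icam1 stayed between 2.60 and 4.97, that of Nfkb2 between 1.40 and 1.70, that of Tnip1 between 1.55 and 1.82, and that of Klk8 between -3.284 and -2.501.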

How the data were processed

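Per the submitters' processing notes the authors used MAS5, and the deposited values are its signal intensities, 1 for each probe set on each array. Its version and settings are not given in the sources used here. Deposited intensities had the same trimmed mean, 1000, on every array. The 64 control probe sets were set aside, arrays were brought to a 2% trimmed mean of 500, and values were analysed as log2(signal + 16). The platform annotation gave 1 gene symbol to 34945 of 45101 probe sets, several to 932 and none to 9160. Symbols were checked against RefSeq (GRCm38.p6, 34741 identifiers matched). Probe sets with a signal of 100 on at least 4 arrays were kept (18022), and the one with the highest mean log2 value stood for its gene. One linear model held the 3 groups (limma 3.58.1, R 4.3.3, lmFit, then eBayes with trend). Tests were two-sided and p-values were adjusted over 10269 genes by Benjamini and Hochberg's method. The pooled contrast was the mean of both exposures minus control. The model was tested on simulated data.

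Named genes were up to 15 per direction with the widest gap between exposed and control arrays, up to 10 with the largest change among genes with 7 of 8, up to 4 members of each list with 7 or 8, and 18 chosen genes, of which Tnf was not tested. The other genes without overlap, the genes with an adjusted p under 0.10 and the genes nearest the limit were added after values were seen. Predicted genes were passed over by the rule. The members, lists and motifs were chosen with earlier results of these data known. Alternatives were other scalings, pseudocounts of 1 and 64, no filter or 250, averaged probe sets, a 2-group model and leaving out each array.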

Additional observations from a re-analysis of the deposited data

Results flagged for a closer look

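Il13ra1, Edn1 and Nfkb2 differed between the exposures by the model's own test, so the pooled comparison averages unlike values for them. The tmTNF minus soluble TNF difference was -4.51 for Il13ra1 (adjusted p = 0.00208 by limma), -3.90 for Edn1 (adjusted p = 0.0349) and -1.49 for Nfkb2 (adjusted p = 0.0232), on the log2 scale. The size for Il13ra1 rests on tmTNF signals under 100. For Nfkb2 all 8 exposed arrays were nevertheless above control.

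Among the named genes 12 of 210 groups of 4 arrays held 1 array far from the other 3, judged by its gap over the range of the group, and chance gives about 1 in 20. In controls these were control 1 for Klk8 (signal 2171), Gbp3 (138.7) and Zbtb12 (8.5), and control 2 for Cln6 (932.8) and Tnip1 (1719). In tmTNF it was replicate 1 for Traf2 (307.1). In soluble TNF it was replicate 1 for Traf2 (828.3), replicate 2 for Eef1aknmt (259.5) and Tnfrsf1b (107.0), and replicate 3 for Irf1 (4625), Lrg1 (178.0) and Tnip1 (8576).

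The 5′ control probe set of 18S ribosomal RNA, which entered no test, read 182.8 on the lowest exposed array and 146.3 on the highest control. In the middle and 3′ probe sets of 18S, exposed and control arrays overlapped.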

How the results depend on the processing

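No gene was called in the pooled comparison under the main settings, and the count stayed at 0 under quantile and same-median scaling, the deposited scaling, pseudocounts of 1 and 64, other filters, averaged probe sets and the 2-group model. Leaving out single arrays gave 0 to 12 calls, 12 without tmTNF replicate 1 and 2 without control 4. The 42 genes without overlap became 82 with no filter on low signals, 180 when 7 of 8 arrays sufficed, and 218 without the 3 arrays lowest in endothelial markers, an alternative added after seeing the data. Leaving out 1 array gave 46 to 149 genes. The count was 125, 101, 149 and 140 without controls 1 to 4, 92 without tmTNF replicate 1 and 73 without tmTNF replicate 3 (an omission cannot create overlap, so these sets hold the 42 by construction). It was 49 with quantile normalization, 49 as deposited, 31 with the same median on every array, 35 with a filter at 250 and 51 with averaged probe sets, which held 38, 42, 19, 35 and 32 of the 42. The deposited arrays already shared a trimmed mean, so 42 there says nothing of stability, and averaging could alter only 15 genes, of which 5 stayed. Of 2066 values of single genes under the alternatives, 2050 kept direction and side of the threshold, 11 became significant and 5 reversed. The reversed values were Nos3 at 0.126 without control 1, and Tnfrsf1b at -0.0293 with averaged probe sets, -0.0867 without control 2, -0.181 without control 4 and -0.0709 without tmTNF replicate 2. Leaving out 1 array, Nos3 ran from -0.949 to 0.126 and Tnfrsf1b from -0.181 to 0.38. The causes were not tested. No paired analysis was possible because the labels carry no replicate numbers, and those used here only name the arrays. The 4 arrays per group limit the precision, and genes under a signal of 100 in all controls have only a lower bound. The size of a fall to exposed signals under 100 is likewise not relied on.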
